A study of Gallus gallus with 24 samples.

Results

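Abdominal fat of 5 wk old broiler cockerels was compared between a fat line (FL) and a lean line (LL), which had been bred over several generations for a large or a small abdominal fat depot. The comparison used the 4 two-colour cDNA arrays labelled with that age, out of 24 arrays covering 6 ages. Each array held total RNA of 1 FL and 1 LL bird, so 4 birds per line entered, all male and on the standard broiler regime named in the labels. FL carried the dye Alexa 647 on replicates 2 and 4, and LL carried it on replicates 1 and 3, with the other line in Alexa 555. The labels name no further treatment, and the replicate numbers stand for different birds, so the spread between arrays includes birds, labelling and hybridisation together.

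Abdominal fat in chickens grows by filling adipocytes with triglyceride. Most of the fatty acid in that triglyceride is made in the liver and reaches the fat depot in very low density lipoprotein, from which lipoprotein lipase releases it at the vessel wall. Adipocytes also carry the enzymes of fatty acid synthesis, the droplet proteins that guard the store and the lipases that empty it, and the depot holds vessels, matrix, immune cells and a mesothelial covering. The question at 5 wk, a juvenile stage of rapid growth, was which genes differed in transcript level between the lines.

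The values were log2 ratios, so 1 unit is a doubling and 0 is no difference between the 2 birds on an array. Titles name FL ahead of LL, which makes FL the likely numerator, but the sources used here do not settle it. A gene called higher here is higher in the numerator line, if the same line is the numerator on every array. With LL as that numerator all signs would be opposite. If the same dye were the numerator instead, the signs of replicates 1 and 3 would turn against those of replicates 2 and 4. On that turned reading 48 of 89 named genes changed sign, and 998 features passed the adjusted test in place of 0. With the other dye as numerator, all turned signs would be opposite. Higher, lower and one sign on all 4 arrays refer to the same-line reading unless the turned reading is named. A dye-corrected ratio is a deposited ratio less the dye term of a fit over all 24 arrays, and the line effect is the weighted mean of the 4 dye-corrected ratios in that fit. Features were 6428 named genes, with the spots of each averaged, and unnamed spots up to a total of 15027. Because the values are ratios, the level of adipocyte or other marker genes cannot be read from them, and only differences between lines are given. A difference in the share of a cell type and a difference in RNA per cell cannot be told apart in whole tissue.

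On the reading with the same line as numerator on every array, no gene differed between the lines at 5 wk at an adjusted p under 0.05. Of 15027 features 0 were called (0.0%) by limma's moderated test with Benjamini-Hochberg adjustment, and the lowest adjusted p was 0.9998. At an unadjusted p under 0.05 there were 325 features (2.16%), of which 161 were higher (1.07%) and 164 lower (1.09%). With no line difference at any feature a share of about 0.05 would pass, so these were fewer than that. The median SE of a line effect was 0.116. On simulated ratios with the spread of these arrays, the same fit recovered 94% of 100 features changed by 1 log2 unit and 45% of 100 changed by 0.5. It also called 6 features that had not been changed. The simulated noise was independent between features, without the patterns that spots of an array share, and 200 features were changed at once. These shares therefore need not hold for the real arrays. Signs falling at random would give one sign on all 4 arrays for a share of about 0.125. The dye-corrected ratio had one sign on all 4 arrays for 1110 features (7.39%), with 541 above 0 (3.6%) and 569 below 0 (3.79%), and 463 of the 1110 carried a gene symbol. The genes described next are the 10 with the smallest p in each direction among those 463, and their values are a description, since none passed the adjusted test. Their one sign holds after the dye term is taken off. As deposited, MBL2, SULT6B1L, ADD3, TRIL, RBBP6, TMEM220, ULK2, RNF166, RNASEH1 and RPS19BP1 had ratios of both signs. Of the 89 named genes, 59 had a line effect that moved over 1.5 times or turned sign without 1 array of 5 wk. So did 10 of the 20 described next. Each fit without an array set the array weights and the dye term anew. A shift given here therefore mixes the loss of that array with changed weights of the others, and the parts were not separated. Of the 31 named genes printed on several spots, 18 had spots of opposite sign on at least 2 of the 4 arrays. On all 4 arrays this held for MSMO1, PRDX6, TPM2 and TAGLN. For TRIL, GPX4, IRF1, B2M, SPINK5, FASN and THRSP it held on 3.

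The higher genes with the closest agreement between birds were VCAM1 and PDE4C. VCAM1, the adhesion molecule by which leukocytes bind activated endothelium, had dye-corrected ratios of 0.48, 0.51, 0.54 and 0.44 on replicates 1 to 4. Its line effect was 0.49 (SE 0.129), and its 4 values lay within a narrow band well away from 0. PDE4C, a phosphodiesterase that breaks down cyclic AMP, had ratios of 0.32, 0.45, 0.40 and 0.33 and a line effect of 0.37 (SE 0.126). SLC23A1, a sodium-dependent transporter of vitamin C, had ratios of 0.39, 0.26, 0.40 and 0.59 and a line effect of 0.44 (SE 0.122). With any 1 array of 5 wk left out, the line effect of VCAM1 lay between 0.46 and 0.52, that of PDE4C between 0.34 and 0.39, and that of SLC23A1 between 0.37 and 0.51.

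CES1L1, a member of the carboxylesterase family of ester-hydrolysing enzymes, had the smallest p of the higher genes. Its ratios were 1.06, 0.19, 0.23 and 0.66, highest on replicate 1, with a line effect of 0.55 (SE 0.135). The gene was printed on 2 spots, which gave deposited ratios of 1.23 and 0.92 on replicate 1, 0.24 and 0.09 on replicate 2, 0.29 and 0.21 on replicate 3, and 0.53 and 0.75 on replicate 4. Both spots therefore placed replicates 1 and 4 above replicates 2 and 3. SULT6B1L, a sulfotransferase, had ratios of 0.86, 0.00, 0.96 and 0.82 and a line effect of 0.74 (SE 0.227). After the dye correction replicate 2 stood at 0 while the other arrays lay close together. As deposited the ratios of SULT6B1L were 1.04, -0.19, 1.15 and 0.63.

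The remaining higher genes were less even. MBL2, the mannose-binding lectin that the liver secretes, had ratios of 1.64, 0.21, 0.80 and 0.26 and a line effect of 0.70 (SE 0.208), with replicate 1 far above the others. CP, the copper-carrying plasma protein ceruloplasmin, had a line effect of 0.22 (SE 0.0763), and ratios from 0.12 to 0.34. VTI1B, which takes part in vesicle fusion, had a line effect of 0.31 (SE 0.0957), and one of 0.14 without replicate 3. ADD3, a protein of the membrane skeleton, and TRIL, an accessory protein of Toll-like receptor 4, were each printed on 2 spots that did not agree. For ADD3 the spots gave 0.05 and 1.13 on replicate 1 and 0.24 and 1.85 on replicate 3. For TRIL they gave 0.68 and -0.77 on replicate 1, so the mean of its spots is not a measure of one transcript.

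Among the lower genes, RBBP6 had the smallest p. RBBP6, a ubiquitin ligase that binds the retinoblastoma protein, had ratios of -0.27, -0.42, -0.62 and -1.0 on replicates 1 to 4 and a line effect of -0.64 (SE 0.143). All 4 dye-corrected values lay below 0, and replicate 4 was the lowest. As deposited, replicate 1 was at 0.05. ULK2, a kinase that starts autophagy, had ratios of -0.73, -0.53, -0.35 and -0.70 and a line effect of -0.58 (SE 0.186). TMEM220, a membrane protein, had ratios of -0.48, -0.54, -0.58 and -0.16 and a line effect of -0.41 (SE 0.118). With any 1 array of 5 wk left out, the effect lay between -0.80 and -0.49 for RBBP6, between -0.69 and -0.46 for ULK2, and between -0.56 and -0.26 for TMEM220.

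Among the other lower genes, LRP12, RNASEH1 and RPS19BP1 were led by 1 or 2 arrays, and TRDN and CPQ were more even. LRP12, of the low density lipoprotein receptor family, had ratios of -0.33, -0.29, -0.80 and -0.06, and its line effect of -0.36 (SE 0.104) became -0.12 without replicate 3. RNASEH1, which cuts RNA paired with DNA, had ratios of -0.60, -0.19, -0.86 and -0.02, and its effect of -0.41 (SE 0.153) became -0.11 without replicate 3. RPS19BP1 reached -0.97 on replicate 2 and lay between -0.26 and -0.02 on the others. TRDN, the triadin of the muscle calcium release complex, had the even but small ratios -0.35, -0.11, -0.28 and -0.18, with a line effect of -0.23 (SE 0.0842). CPQ, a carboxypeptidase, RNF166, a ubiquitin ligase, and PGAM5, a mitochondrial phosphatase, had line effects of -0.29, -0.27 and -0.23. That of CPQ lay between -0.33 and -0.24 with any 1 array of 5 wk left out, and that of RNF166 became -0.12 without replicate 4. The plot of these 20 genes sets the spread of the arrays beside each SE.

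**Figure D1:**
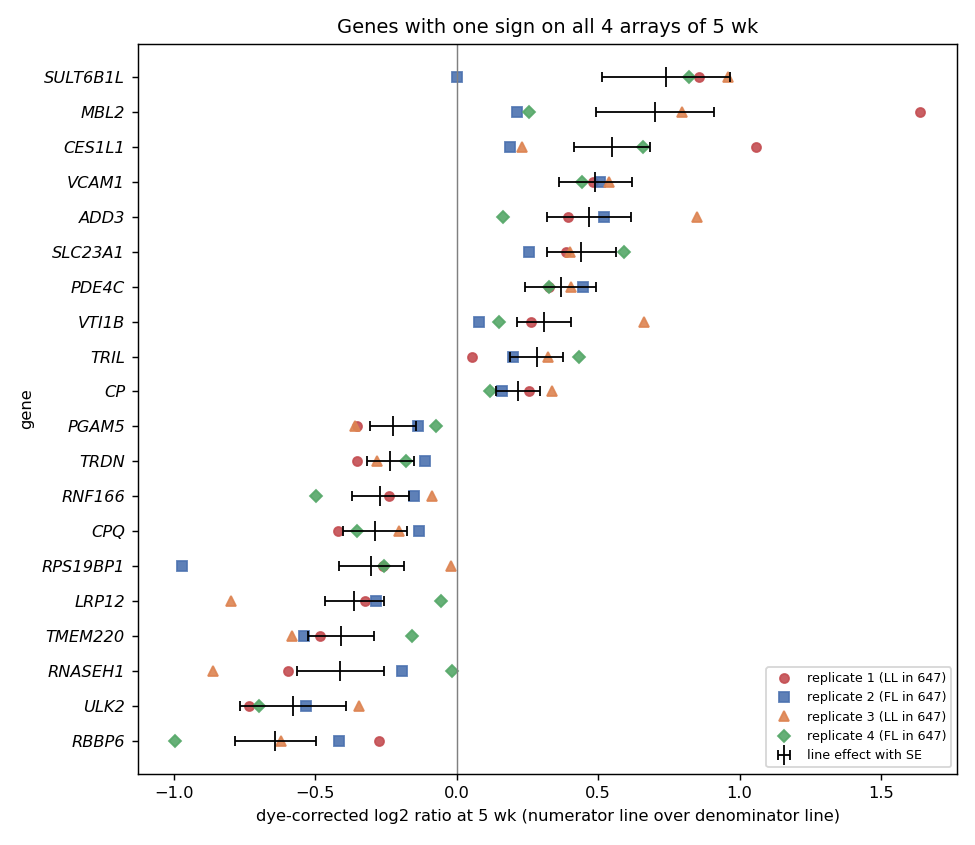
Dye-corrected log2 ratios at 5 wk (x axis, numerator line over denominator line) of the 20 genes with one sign on all 4 arrays and the smallest p in each direction. Symbols are the 4 arrays by replicate and dye orientation, black ticks with bars are the line effect with its SE. The 4 arrays of VCAM1 lie between 0.44 and 0.54, whereas those of MBL2 run from 0.21 to 1.64.

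Genes that make fatty acids had values on both sides of 0. Of 27 measured members of the synthesis list, 13 had a line effect above 0, against 51.0% of all features, and the list median was -0.00 beside 0.00 over all features. FASN, the fatty acid synthase, had ratios of -0.22, -0.19, -0.06 and -0.21 and a line effect of -0.16 (SE 0.111). All 4 values lay below 0, but its 2 spots gave deposited ratios of -0.94 and 0.46 on replicate 2, so they did not agree. SCD, the desaturase that makes oleate, had ratios of -0.30, -0.50, -0.13 and -0.28 and a line effect of -0.28 (SE 0.176), the lowest of the list. SLC25A1, which exports citrate from mitochondria as the carbon source for synthesis, also had 4 values below 0, from -0.24 to -0.05. In the whole list of 27, 3 genes lay below 0 on all 4 arrays (3.79% of all features did) and 1 above (3.6% of all features). ACACA, the acetyl-CoA carboxylase that commits carbon to fatty acids, was at 0.21, 0.41, -0.12 and -0.02, with no common sign. THRSP, a thyroid-responsive factor of lipid synthesis, had a line effect of -0.18 (SE 0.211), and MCAT, the mitochondrial malonyl transferase, one of 0.22 (SE 0.115). Neither THRSP nor MCAT had one sign on every array.

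The list of fat uptake and storage had a median below 0 and that of fatty acid oxidation one above, but neither list kept its sign on all 4 arrays. Of 18 storage genes 6 had a line effect above 0, with a median of -0.07. VLDLR, a receptor for triglyceride-rich lipoprotein, had ratios of -0.11, 0.09, -0.53 and -0.44 and a line effect of -0.31 (SE 0.162). CD36, a fatty acid uptake receptor, lay below 0 on all 4 arrays (-0.47, -0.23, -0.03 and -0.14), and its line effect was -0.19 (SE 0.139). DGAT2, which adds the last acyl chain of triglyceride, lay between -0.16 and -0.00. In the whole list of 18, 2 genes lay below 0 on all 4 arrays (3.79% of all features did) and 1 above (3.6% of all features). PLIN1, the coat protein of the lipid droplet, went from 0.21 on replicate 1 to -0.30 on replicate 4. SLC27A4, a fatty acid transporter, had the highest line effect of the list at 0.20 (SE 0.117).

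Of 33 oxidation genes 25 had a line effect above 0, with a median of 0.05. The median of their ratios was 0.13 on replicate 1, -0.06 on replicate 2, 0.06 on replicate 3 and 0.03 on replicate 4. Replicate 2 thus ran against the other 3 arrays, and without replicate 1 only 17 of the 33 lay above 0. SLC25A20, the carrier of acylcarnitine into mitochondria, had ratios of 0.13, -0.18, 0.17 and 0.59 and a line effect of 0.25 (SE 0.108). ACAD9, an acyl-CoA dehydrogenase, had ratios of 0.28, 0.05, 0.41 and -0.03. Of the 7 lipolysis genes 3 lay above 0, with a median of -0.02. PNPLA2, the first lipase of triglyceride breakdown, ranged from -0.81 on replicate 1 to 0.52 on replicate 2, and LIPA, the lysosomal lipase, from -0.36 to 0.17. In the sterol list 7 of 17 lay above 0, and FDPS and MSMO1, enzymes of that route, had line effects of -0.20 (SE 0.118) and 0.16 (SE 0.115). The 2 spots of MSMO1 had deposited ratios of opposite sign on all 4 arrays.

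Regulators and secreted products of adipocytes gave small values. PPARG, the nuclear receptor that drives fat cell formation, had ratios of 0.27, 0.33, -0.52 and 0.17 and a line effect of 0.02 (SE 0.274). ADIPOQ, the adipocyte hormone adiponectin, had ratios of 0.20, -0.13, 0.02 and -0.00 and a line effect of 0.03 (SE 0.126). The values of both genes lay on either side of 0, and those of PPARG spread more widely. Of 27 adipogenic regulators 16 lay above 0, with a median of 0.02, and EBF2 and CTNNB1 had line effects of 0.20 (SE 0.117) and 0.29 (SE 0.23), which became 0.08 and 0.01 without replicate 4. Of 25 adipokines and secreted factors 9 lay above 0, with a median of -0.03, and TGFB2 had a line effect of -0.11 (SE 0.11).

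In the retinoid and thyroid list 11 of 23 lay above 0. BCO2, which cleaves carotenoids, had ratios of -0.25, -0.49, -0.03 and -0.63 and a line effect of -0.36 (SE 0.176), which became -0.13 without replicate 4. RETSAT, the retinol saturase, had ratios of 0.28, -0.90, -0.60 and -1.09 and a line effect of -0.62 (SE 0.349), with replicate 1 on the other side. Glucose metabolism had 19 of 38 above 0, and GBE1 and PYGB, which branch and break down glycogen, had line effects of 0.20 (SE 0.0908) and 0.14 (SE 0.0785). Insulin and IGF signalling had 13 of 19 above 0 with a median of 0.04, while IGFBP2, a binding protein of insulin-like growth factors, was at -0.34 (SE 0.201), and SOCS2, a brake on growth hormone signalling, at 0.17 (SE 0.104). Without replicate 3 these became -0.15 and 0.02.

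Matrix and vessel genes held values of both signs. SPARC, a collagen-binding matrix protein secreted by stromal and fat cells, had ratios of 0.12, -1.94, -0.56 and -0.33 and a line effect of -0.55 (SE 0.188). Its low value rested on replicate 2, and without that array the effect was -0.23, although both of its spots were low there, at -2.92 and -1.49 as deposited. LOXL3, which cross-links collagen, had ratios of -0.40, -0.11, -0.22 and -0.17 and a line effect of -0.22 (SE 0.0887). Its 3 spots did not agree, with deposited ratios of -0.08, -0.52 and 0.38 on replicate 2 and 0.11, -0.91 and 0.42 on replicate 4. COL18A1, a collagen of vascular basement membrane, had a line effect of 0.20 (SE 0.0932). Of 61 matrix genes 32 lay above 0, with a median of 0.01, and 4 of the 61 lay below 0 on all 4 arrays (3.79% of all features did) and 0 above (3.6% of all features).

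VWF, the von Willebrand factor of endothelium and platelets, was opposite to VCAM1. Its ratios were -0.33, 0.21, -0.57 and -0.82, with replicate 2 alone above 0, and its line effect was -0.48 (SE 0.128). Of 32 endothelial genes 13 lay above 0 and the median was -0.02, and VCAM1 and VWF were its highest and lowest members. Coagulation genes had 21 of 30 above 0 with a median of 0.03, and SERPIND1, the thrombin inhibitor heparin cofactor, had a line effect of 0.25 (SE 0.162) with 0.71 on replicate 1.

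**Figure D2:**
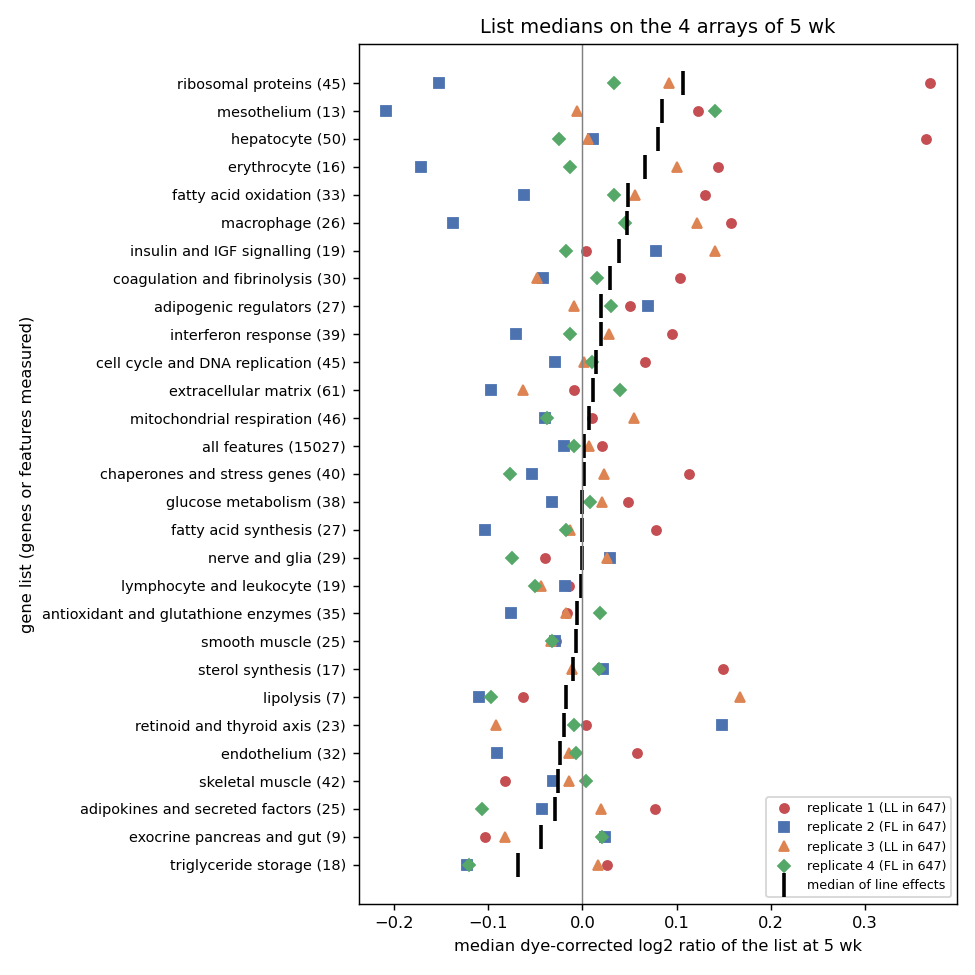
Median dye-corrected log2 ratio (x axis) of each of 28 gene lists and of all features on the 4 arrays of 5 wk, with the number of genes or features measured in brackets. Black ticks are the median of the line effects. The ribosomal and hepatocyte lists reach 0.37 on replicate 1, while no other list median on an array is above 0.17.

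The ribosomal protein list had the highest median of the 28 lists, and its arrays did not agree. Of 45 members 34 lay above 0, and the median line effect was 0.11. The median ratio of the list was 0.37 on replicate 1, -0.15 on replicate 2, 0.09 on replicate 3 and 0.03 on replicate 4. Without replicate 1 the median was 0.01 with 24 of 45 above 0, and without replicate 2 it was 0.19. RPS24, of the small subunit, had ratios of 1.52, -0.45, 1.26 and 1.71 and a line effect of 1.20 (SE 0.257). RPS3A, with ratios of 0.60, -0.41, 0.55 and 0.73, and RPL17, with 1.02, -0.81, 0.87 and 0.82, had the same shape, with replicate 2 below 0 and the other arrays above. RPL35A ran the other way, at -0.64, 0.04, -0.47 and -0.53, with a line effect of -0.45 (SE 0.14). RPS24, RPL17 and RPL35A were each on 1 spot, and which transcript a spot's signal came from was not tested.

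Mitochondrial respiration had 25 of 46 genes above 0 and a median of 0.01. ATP5O, a subunit of the ATP synthase, lay above 0 on all 4 arrays (0.24, 0.17, 0.11 and 0.43), and UCP3, a mitochondrial carrier of the uncoupling family, had a line effect of 0.14 (SE 0.0748). Chaperone and stress genes had 21 of 40 above 0. JUN, an immediate early transcription factor, had ratios of 0.28, 0.06, 0.29 and 0.32, though its 3 spots differed in sign on replicates 2 and 4, and DNAJB6, a co-chaperone, had a line effect of 0.32 (SE 0.178). Antioxidant enzymes had 15 of 35 above 0, with GPX4, which reduces lipid peroxides, at 0.15 (SE 0.0991) and PRDX6, a peroxiredoxin, at -0.19 (SE 0.127), both from spots that differed in sign on most arrays. Cell cycle genes had 24 of 45 above 0. RRM2, of ribonucleotide reductase, was even at 0.15, 0.15, 0.11 and 0.13, and E2F4, a repressor of cell cycle genes, lay between -0.15 and -0.03.

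Markers of other cells in the depot were mostly near 0. Of 26 macrophage genes 17 lay above 0, with array medians of 0.16, -0.14, 0.12 and 0.04, and LYG2, a goose-type lysozyme, had ratios of 0.87, -0.44, 1.04 and 0.75. CCL5, a chemokine of T cells and macrophages, lay between 0.04 and 0.20. Lymphocyte and leukocyte genes had 9 of 19 above 0, with DOCK8 and LCP1 at -0.23 and -0.10, and interferon genes had 23 of 39, with IRF1 and B2M at 0.21 and 0.18. Mesothelial genes had 10 of 13 above 0 and a median of 0.08, with LRRN4 at 1.27, -0.21, -0.15 and 0.50, and GPM6A at 0.19 (SE 0.106). Erythrocyte genes had 11 of 16 above 0, and HBBA, a beta globin, was at 0.59 and 0.64 on replicates 1 and 2 and at -0.21 and -0.01 on replicates 3 and 4. Skeletal muscle genes had 18 of 42 above 0, with ANKRD1 at 0.33 (SE 0.155), and smooth muscle genes 12 of 25, with TPM2 and TAGLN at -0.14 and -0.12. Nerve and glia genes had 14 of 29 above 0, with STMN2 at -0.27 (SE 0.132) and SOX10 at 0.12 (SE 0.0952), and exocrine pancreas and gut genes 3 of 9, with SPINK5 at 0.27 (SE 0.127) and CEL at 0.10 (SE 0.0797). The part of these cells in the line effects was not tested.

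The list of liver genes had a high median on replicate 1 alone, but its members did not all follow. ALB, the albumin secreted by hepatocytes, had ratios of 3.67, 0.29, -0.03 and 0.18 on replicates 1 to 4, and its 2 spots gave 4.71 and 2.65 on replicate 1. In the list of 50 hepatocyte genes, 10 were above 1 log2 unit on replicate 1 and 0 on each other array. After ALB they were led by FGB, a fibrinogen chain, at 1.90, MBL2 at 1.64, the apolipoprotein APOH at 1.52, and AHSG, the plasma protein fetuin A, at 1.20. Others were the transthyretin gene TTR at 1.19, VTN, the adhesive plasma protein vitronectin, at 1.13, and PCK1, an enzyme of glucose synthesis that fat also expresses, at 1.11. On replicate 1 the list median was 0.37, against 0.01, 0.01 and -0.02 on replicates 2 to 4. Some members went the other way on replicate 1, with AGXT at -0.48, CYP2C18 at -0.47, LECT2 at -0.37 and APOA4 at -0.26. The fibrinogen chain FGG was at -0.01 there. High values were also found elsewhere, with MBL2 and TF at 0.80 and 0.58 on replicate 3 and LECT2 at 0.98 on replicate 2.

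With all arrays 36 of the 50 hepatocyte genes had a line effect above 0 and the median was 0.08. Without replicate 1 these became 21 of 50 and -0.02. After the dye correction MBL2 stayed above 0 on the other arrays, though as deposited it was at -0.09 and -0.05 on replicates 2 and 4. The line effect of MBL2 without replicate 1 was 0.37, while that of ALB was 0.11. The same array held 57 spots above a log2 ratio of 2, against 6, 10 and 2 on replicates 2 to 4. Of those 57 spots, 36 were also above 1 on replicate 2 of the 1 wk birds, and 13 had a gene symbol. That 1 wk array was picked as one with high liver genes. How many of all spots lay above 1 on it was not counted. Of the same 57, 27 lay in a set of print positions that holds 192 spots, 143 of them unnamed. No rule for that set was stated beforehand, and it may have been picked from where high spots lay. The count is therefore a description only. The part of liver RNA in the values of replicate 1 was not tested.

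**Figure D3:**
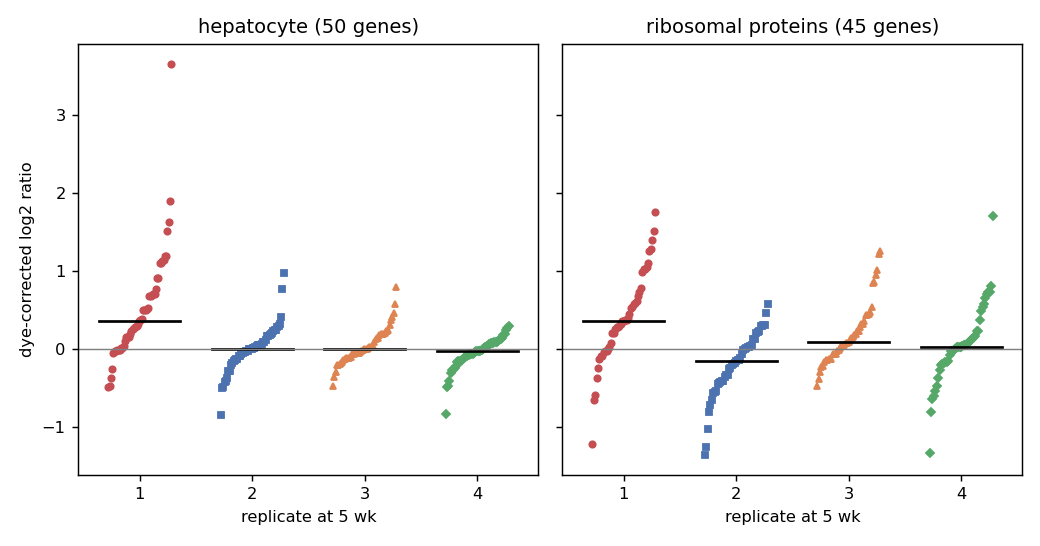
Dye-corrected log2 ratios (y axis) of 50 hepatocyte genes and 45 ribosomal protein genes on each of the 4 arrays of 5 wk, sorted within an array, with the median as a black line. ALB stands at 3.67 on replicate 1, and both lists have their highest median there.

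The 4 arrays did not carry the 5 wk values equally. The SD over spots was 0.435, 0.391, 0.322 and 0.322 on replicates 1 to 4, against 0.209 to 0.411 on the 20 arrays of other ages, so replicate 1 was the widest of the 24. Array weights, which limma sets from how well an array fits the rest, were 0.671, 0.491, 0.895 and 1.07. Replicate 1 held the most extreme of the 4 ratios for 31.9% of features and replicate 4 for 16.3%. Of the 500 features with the greatest line effect in either direction, 215 had their most extreme ratio on replicate 1, 62 on replicate 2, 134 on replicate 3 and 89 on replicate 4.

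Leaving out arrays changed which features had small p-values. With all 4 arrays that set was no larger than passes with no line difference. Of the 325 features at an unadjusted p under 0.05, 100 kept it without replicate 1, 251 without replicate 2, 182 without replicate 3 and 193 without replicate 4. The count of all features at that threshold was 300 without replicate 1, and 892, 1115 and 1356 without replicates 2, 3 and 4. The line effect turned sign without the array for 24.9%, 17.1%, 29.2% and 26.0% of all features. Replicate 2 was thus the array whose removal kept most of the 325, and replicate 1 the one whose removal kept the fewest.

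Without an array, a few features passed the adjusted test. Without replicate 2, RPS24 was called in limma, with a line effect of 1.5 (SE 0.236, adjusted p = 0.0486). Without replicate 3 there were 4 calls, 2 of them named and 2 unnamed spots. TMEM183A, a membrane protein gene on 1 spot, had ratios of 0.47, -0.20, 0.34 and 6.70, and its limma effect of 4.81 without replicate 3 (adjusted p = 0.0231) rested on replicate 4. LOC420362 had ratios of 0.12, -0.03, 0.13 and 2.02, again with replicate 4 alone away from 0, and an effect of 1.45 (limma adjusted p = 0.0322). Without replicate 1 or replicate 4 there were 0 calls in limma, against 300 and 1356 features at an unadjusted p under 0.05. Other genes that 1 array set apart were ADCY2, an adenylyl cyclase, at 2.39 on replicate 1, and ERN1 and ANXA2 at -1.75 and -1.82 on replicate 2. CLCN3 and PRKCH were at 1.29 and 1.58 on replicate 3, and RPL24 at -1.33 on replicate 4.

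**Figure D4:**
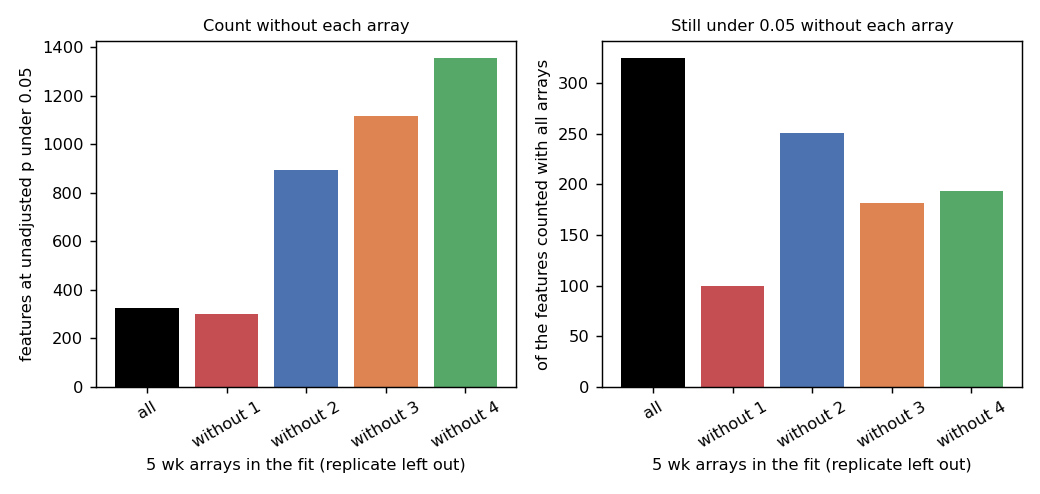
Features at an unadjusted p under 0.05 for the line effect at 5 wk (left, y axis from 0) with all 4 arrays (325) and without each one, and how many of the 325 stay under 0.05 (right). Without replicate 1 the count is 300 and 100 of the 325 remain.

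Values at 5 wk were also set against the mean of the other 5 ages. With the same line as numerator on every array, no feature differed (0 of 15027, 0.0%, lowest limma adjusted p 0.9999). There were 280 at an unadjusted p under 0.05 (1.86%). SPARC, at -0.79 (SE 0.201), had the smallest p, and with VWF at -0.46 (SE 0.137) and RAB11FIP4, an endosomal transport protein, at -0.44 (SE 0.119) it made up the 3 lower genes. The 3 higher genes were SCLY, which breaks down selenocysteine, at 0.40 (SE 0.109), PCNT, of the centrosome, at 0.38 (SE 0.117), and STAR, which moves cholesterol into mitochondria, at 0.32 (SE 0.0964). The 2 spots of SCLY did not agree, with deposited ratios of 0.34 and -0.68 on replicate 1 and 0.03 and 1.06 on replicate 3. The STAR ratios at 5 wk were 0.52, 0.21, 0.23 and 0.02, and those of PCNT -0.13, 0.54, 0.11 and 0.22. VCAM1, at 0.49 here, averaged 0.13 over the other ages. Across features the plain means of the deposited ratios at 5 wk correlated with those of 1, 3, 7, 9 and 11 wk. The r values were 0.05, 0.08, 0.20, 0.05 and 0.23. These means used no array weights and no fitted dye term, and all ages share the spots' positions.

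The dye orientation left a large mark on the same arrays. Across features the deposited ratios of replicates 1 and 3 correlated at r of 0.25 and those of replicates 2 and 4 at 0.09, while the 4 pairs of opposite orientation correlated at -0.41, -0.15, -0.23 and -0.34. The points share print positions, and for the medians of the 400 positions within a block, taken over 48 blocks, the opposite pairs stood at -0.61, -0.35, -0.51 and -0.53. In the fit over 24 arrays the dye term was called for 5043 of 15027 features. With the dye term taken off, replicate 1 correlated with replicates 2, 3 and 4 at r of -0.33, 0.14 and 0.08. Replicate 2 correlated with replicates 3 and 4 at -0.14 and -0.14, and replicate 3 with replicate 4 at -0.15. Replicate 2 was thus below 0 with each other array after that correction too. Files of arrays with LL in Alexa 647 write up to 6 significant digits and the others up to 10. A pattern that alternates with the dye would be a line difference if the deposited ratios were Alexa 647 over Alexa 555 and not one line over the other, and the fit can be run on that reading by turning the sign of replicates 1 and 3. These readings cannot be told apart from the sources used here. If the deposited ratios were Alexa 555 over Alexa 647, all signs on the turned reading would be opposite.

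With the ratios turned by the dyes, 998 of 15027 features were called at 5 wk (6.64%) by limma. Of these, 293 were higher (1.95%) and 705 lower (4.69%). Higher and lower on this reading refer to FL over LL only if the numerator was the dye FL carried on replicates 2 and 4. With the other dye as numerator, all signs on this reading would be opposite. Without 1 array the count ran from 692 to 1149, and 322 of the 998 were called in all 4 such fits. On this reading BTBD17 was 1.09 higher (SE 0.103, limma adjusted p = 1.04e-05), from deposited ratios of -1.23, 1.29, -0.79 and 1.19. TCEB1, the elongin C of ubiquitin ligases, was lower at -0.89 (SE 0.0994, limma adjusted p = 2.51e-05), from 1.25, -0.51, 0.87 and -0.86. RPL24, of the large ribosomal subunit, was at -1.57 (SE 0.182, limma adjusted p = 3.21e-05), from 2.26, -0.36, 1.46 and -1.83. The deposited ratios of each of the 3 genes were of opposite sign in the 2 dye orientations, and all 3 had a line effect between 0.12 and 0.22 with no call on the reading used above.

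The other higher genes with the smallest p on the turned reading were SEMA5B, CARD8, TSPAN2, ZNF831, RPA2, LOC428525, HSPA4, PPP1R14C and FILIP1L, with effects from 0.43 to 1.08. The other lower genes were PHF6, ABCF2, KCTD2, ATP6V1G3, ARRDC1, AQR, DNAJA3 and COG6, with effects from -0.99 to -0.61. RPA2, a subunit of the protein that coats single-stranded DNA, and HSPA4, a chaperone, were at 0.63 (SE 0.0977) and 0.43 (SE 0.0675). KCTD2, the one of these genes printed on 2 spots, was at -0.61 (SE 0.0725).

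**Figure D5:**
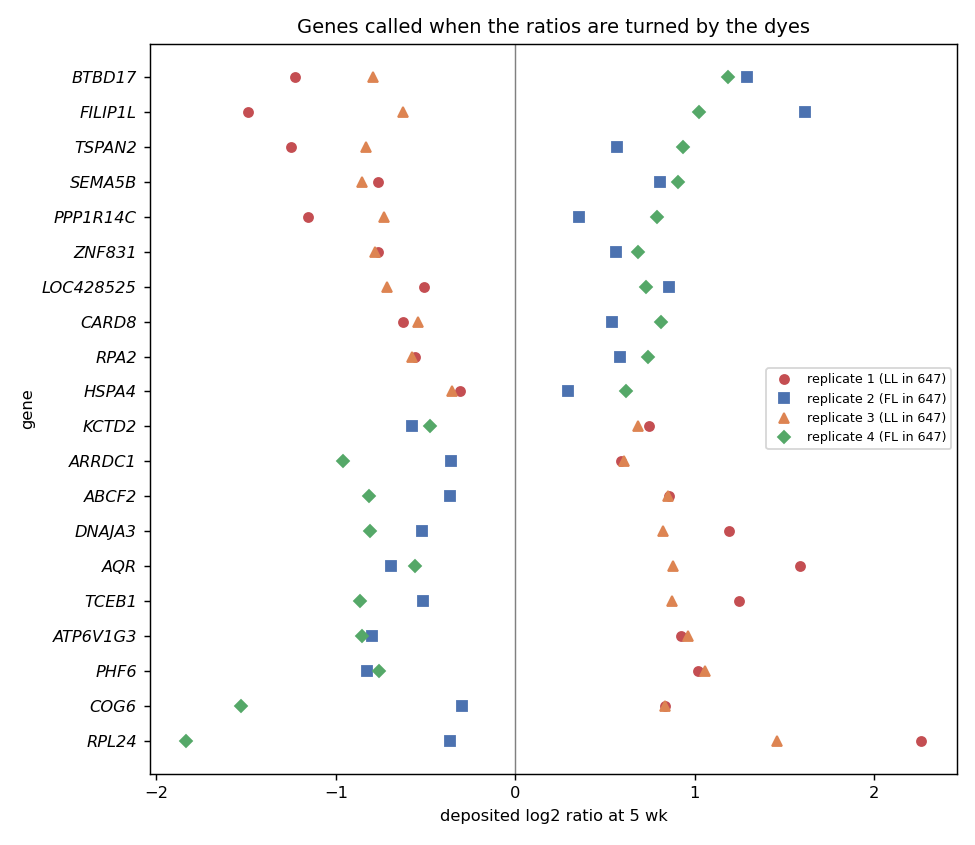
Deposited log2 ratios (x axis) on the 4 arrays of 5 wk for the 20 named genes with the smallest p, 10 in each direction, when ratios are turned by the dyes. Symbols are arrays by replicate and dye orientation. Replicates 2 and 4 lie on one side of 0 and replicates 1 and 3 on the other for each gene.

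Ribosomal protein genes carried the greatest list shift on the turned reading. There 4 of 45 lay above 0, against 46.3% of all features, and the median was -0.30. Of the 45, 12 were called, all lower, against 4.69% of all features called lower. The median deposited ratio of the list was 0.54, -0.36, 0.37 and -0.11 on replicates 1 to 4. RPL11, RPL4 and RPS23 were examples, at -0.95, -0.91 and -1.10. Chaperone genes had 7 of 40 called, against 6.64% of all features. HSPA8 at -0.96, DNAJA1 at -0.94 and HSPD1, the mitochondrial chaperonin, at -0.78 were among the 5 lower ones. HSPA4 and CCT2, at 0.43 and 0.25, were the 2 higher ones.

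Immune genes were called in uneven numbers, beside 6.64% of all features called and 4.69% called lower. The difference between their lists was not tested. The macrophage list had 5 of 26 called, all lower. They were CD74, the invariant chain of antigen presentation, at -0.74, CYBB, of the oxidative burst, at -0.72, CSF3R at -0.52, IL1B at -0.47 and LAPTM5 at -0.39. The interferon list had 1 of 39 called, which was CD74 again, and the lymphocyte and leukocyte list 1 of 19, GPR183 at -1.06. Mitochondrial respiration had 4 of 46 called, all lower, against 4.69% of all features called lower. UQCRFS1 at -0.95 and ATP5B at -0.82 were among them. Of 50 hepatocyte genes 4 were called lower and 1 higher, against 4.69% and 1.95% of all features. MBL2 turned from 0.70 higher to -0.74 (limma adjusted p = 0.0276), and TMEM220 from -0.41 to 0.40 (limma adjusted p = 0.0354).

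The genes of fatty acid synthesis, oxidation and fat storage called on the turned reading were all lower. Beside them, 4.69% of all features were called lower. On that reading 8 of 27 synthesis, 14 of 33 oxidation and 3 of 18 storage genes lay above 0, against 46.3% of all features. Their medians were -0.11, -0.05 and -0.09, beside -0.01 over all features. These differences were not tested. In the synthesis list 2 of 27 were called, HACD3, an elongation enzyme, at -0.40 and SCD5, a desaturase, at -0.42. In the oxidation list 3 of 33 were called, ACAD9 at -0.38, ACAT1 at -0.30 and ACOT8 at -0.41, and LIPA, 1 of 7 lipolysis genes, was called at -0.35. LMF1, the factor that matures lipoprotein lipase, was at -0.50 and was the 1 storage gene called. FABP4, the fatty acid carrier of adipocytes, was named after its values were seen. It had deposited ratios of 1.93, -1.64, 0.71 and -0.70, and on the turned reading it stood at -1.07 without passing the limma test (adjusted p = 0.0522). FASN and SCD were at -0.09 and -0.11, and VCAM1 at 0.00, beside 0.49 on the reading used above.

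Against the other ages 237 features were called on the turned reading (1.58%), 30 higher (0.2%) and 207 lower (1.38%). They included TCEB1 at -0.84 and PHF6 at -0.84, ATP6V1G3 at -0.97, RPL24 at -1.17, SOD1, the cytosolic superoxide dismutase, at -0.60 and UQCRFS1 at -0.95, each more negative at 5 wk than over the other ages. The plain means of the turned ratios at 5 wk, without array weights, correlated across features with those of 1, 3, 7, 9 and 11 wk. The r values were 0.34, 0.29, 0.14, 0.51 and 0.41, with print position and dye shared by all ages.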

How the data were processed

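Spotted cDNA arrays of chicken abdominal fat were hybridised with 1 FL and 1 LL bird each. The deposited values are log2 ratios per spot, made with R 2.11.1 and limma 3.4.5 per the submitters' processing notes; background correction, normalization and numerator are not given in the sources used here. Of 19200 spots, 10601 had 1 gene symbol from the platform annotation (0 had several, 8599 none), after row and column were exchanged in the spot ID. Of these 10455 matched the RefSeq table of the bGalGal1.mat.broiler.GRCg7b assembly, and 0 symbols changed. The 123 spots of 2 control clones were left out. Features (15027, of which 75 lacked a value on some array but 0 at 5 wk) went into a linear model with array weights (limma 3.58.1, statmod 1.5.0, R 4.3.3), 6 age coefficients and a dye term over all 24 arrays, with Benjamini-Hochberg adjustment over all features and a threshold of 0.05. The second contrast set 5 wk against the mean of the other ages. The fit was tested on simulated data. Scanner intensities were not used here, so signal over background is unknown and the number of arrays limits the precision. An exact sign-flip test over 4 arrays could not go below 0.125. Whether same-numbered arrays deviate together from the fit was described across ages. The mean r was -0.06 over 60 pairs, 7 of them over 0.1. For 60 pairs of different number and the same dye orientation it was -0.09, with 5 over 0.1. The 2 sets were not tested against each other, so whether the numbers pair samples is not settled.

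Members and the 28 gene lists (1532 genes, 797 measured) were chosen with earlier results of these data known; lists are described by counts and medians with no test. Named genes were the 10 per direction with the smallest p among genes of one sign on all 4 arrays, the 2 per list with the smallest p, FASN, ACACA, SCD, THRSP, PPARG and ADIPOQ, the 3 per direction against other ages, any called feature and, for each array, the 2 genes farthest from the median of the other 3, 89 genes in all. Other genes given with values, the list members CD36, DGAT2, PLIN1, SLC25A1, COL18A1, RPS3A and RPL17 and those on the turned reading among them, were chosen after their values were seen. Alternatives were other dye terms, scalings, weights, spot naming and averaging, and arrays left out.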

Additional observations from a re-analysis of the deposited data

Results flagged for a closer look

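Of 117 sets of 4 dye-corrected array values tested, 6 had 1 array far from the other 3. Chance flags about 1 in 20 of sets that are not chosen by their values. That share does not apply here, since ALB and TMEM183A were named because 1 array lay far from the other 3. ALB is also a member of the hepatocyte list. ALB was at 3.67 on replicate 1, against -0.03 to 0.29 on the others, and the median of the hepatocyte list was 0.365 on the same array, against -0.02 to 0.01. TMEM183A, on 1 spot, was at 6.70 on replicate 4, against -0.20 to 0.47. SULT6B1L was at 0.00146 on replicate 2, against 0.82 to 0.96, and JUN, whose spots differed in sign there, at 0.0632 on that array, against 0.28 to 0.32. The lipolysis list, with 7 genes, had a median of 0.167 on replicate 3, against -0.11 to -0.06. Deposited ratios on replicates 1 to 4 were 1.04, -0.19, 1.15 and 0.63 for SULT6B1L and 0.51, -0.17, 0.52 and 0.09 for JUN. The deposited lipolysis medians were -0.02, -0.14, 0.33 and -0.12. These deposited values were not tested in this way.

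For some named genes all 4 arrays of 5 wk had one sign and all 4 of another age the opposite sign. The difference between those 2 ages was not tested, and against the mean of the other ages the limma adjusted p of each was 0.9999. Higher at 5 wk and lower at 1 wk were TRIL (line effects of 0.28 and -0.08, from 2 spots that disagree), CP (0.22 and -0.09), PYGB (0.14 and -0.24) and CEL (0.10 and -0.09). Lower at 5 wk and higher at 1 wk were RPS19BP1 (-0.30 and 0.18) and CPQ (-0.29 and 0.19). Lower at 5 wk and higher at 3 wk were LRP12 (-0.36 and 0.07), LOXL3 (-0.22 and 0.03), PRDX6 (-0.19 and 0.25), the spots of these 2 genes disagreeing, and E2F4 (-0.12 and 0.12). E2F4 was also at 0.11 at 11 wk. CCL5 was at 0.15 at 5 wk, at -0.08 at 3 wk and at -0.32 at 7 wk. BCO2 was at -0.36 at 5 wk and 0.35 at 9 wk, and STAR at 0.22 and -0.27.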

How the results depend on the processing

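With 4 arrays and ratios that carry no signal level, the size of effect that these arrays could detect is not known. The simulation recovered 45% of effects of 0.5 log2 units, but with 200 features changed at once and independent noise. The line effect of RPS24, at 1.20, was not called on the real arrays. The direction of the ratios is not settled. On the turned reading the signs also depend on which dye was the numerator. The count of features called stayed at 0, for the line effect and for 5 wk against other ages, in the settings that follow. They were no dye term or one per age, a replicate block in place of the dye term, no weights, scaled arrays and centred print blocks. Further ones were names as given, spots kept single, named features only, robust fitting, and replicates 1 and 2 of 5 wk left out together. The replicate block left 314 features at an unadjusted p under 0.05. The 5 wk arrays alone also gave 0 for the line effect, and cannot give the other comparison. Unadjusted line effect counts over these settings ran from 119 (of the 6428 named features only) to 448 (of single spots), beside 325. Leaving out any array gave 0 to 4 calls for both comparisons, with 1 call for the line effect without replicate 2 of 5 wk and 4 for each without replicate 3. Turned by the dyes, 998 and 237 features were called. Without replicates 1 to 4 of 5 wk in turn, these were 1003, 1149, 789 and 692 for the line effect and 339, 321, 142 and 238 against other ages, omissions chosen after seeing the data. That reading also moved the list medians, to -0.30 for ribosomal proteins and -0.11 for hepatocyte genes, from 0.11 and 0.08. Leaving out arrays took these medians from 0.01 to 0.19 and from -0.02 to 0.14. Of the 89 named genes, 41 kept their sign when turned, 55 with names as given and 84 to 89 in the other settings. Reversed and called when turned were MBL2 at -0.74, TMEM220 at 0.40, ACAD9 at -0.38, DNAJB6 at -0.46, PRKCH at -0.67 and RPL24 at -1.57. The cause was not tested.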
